A study of Mus musculus with 10 samples.

Results

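The MHC class I antigen presentation genes examined here are B2m, Tap1, Tap2, Tapbp, Psmb8, Psmb9, Psmb10 and Nlrc5, 8 of the 18193 genes that the array reads with a probe set of their own. They were listed by their function, and every probe set paired with exactly 1 of these symbols was taken, which gave 14 probe sets. Of these 14, 9 passed the filter on low signals and cover 7 members, and Nlrc5 did not pass. RNA was read on Affymetrix expression arrays from 10 samples of mouse cells. AG-haESC are haploid embryonic stem cells grown from androgenetic blastocysts, whose genome is paternal, on a C57BL/6J background at passages 12 to 15. AG-haESC replicates 1, 2, 4 and 5 are the lines AGH-OG-1, AGH-OG-2, AGH-OG-3 and AGH-OG-4 with an Oct4-EGFP transgene, and replicate 3 is the line AGH-EG-1 with an Actin-EGFP transgene. E14 is a diploid male embryonic stem cell line of 129/Sv background, wild type, with 3 arrays at passage 17 that are all of that same line. MEF are wild type diploid fibroblasts of B6D2F1 background from male embryos at d13.5, with 2 arrays at passage 2. The labels do not say if the 2 MEF samples share an embryo. Before RNA was taken, cells of every group had been incubated with Hoechst 33342 (15 µg/ml) and sorted, for the 1n peak in AG-haESC and the 2n peak in E14 and MEF. AG-haESC grew on feeder cells with CHIR99021 and PD0325901, while the labels do not give the medium of E14 and MEF. AG-haESC differ from E14 and MEF at once in ploidy, parental origin, strain, transgene, passage and possibly culture. MEF differ from AG-haESC and E14 in cell type as well. E14 and MEF, diploid and wild type alike, differ from each other in cell type, strain, passage and possibly culture. Within each comparison these differences cannot be told apart.

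MHC class I molecules display peptides from proteins made inside the cell, so that cytotoxic T cells can inspect them. The proteasome cuts proteins into peptides, the TAP transporter carries these into the endoplasmic reticulum, tapasin loads them onto the heavy chain, and the complex is stable at the surface with its light chain, beta-2 microglobulin. Interferon raises most of these genes, partly through the transactivator Nlrc5, and it brings in the catalytic subunits Psmb8, Psmb9 and Psmb10, which take the place of constitutive ones, to form the immunoproteasome. Embryonic stem cells are known for low surface class I, and fibroblasts display it. B2m codes for the light chain, Tap1 and Tap2 for the subunits of the transporter, and Tapbp for tapasin.

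On GRCm38.p6, Psmb9, Tap1, Psmb8 and Tap2 lie side by side on chromosome 17 within 34292 bases, in the MHC region. Psmb9 covers chr17:34182030-34187330, Tap1 chr17:34187556-34197225, Psmb8 chr17:34198195-34201454 and Tap2 chr17:34204479-34216321. Tapbp lies apart from them on the same chromosome at chr17:33919478-33929290. B2m lies at chr2:122147687-122153082, Psmb10 at chr8:105935728-105938392 and Nlrc5 at chr8:94434335-94527272. The RefSeq promoter table of that build, with 250 bases before and 50 after each gene's start, matched 6 of the 8 members. Tap2 and Nlrc5 were not matched. The promoters printed here are that of B2m, the member with the largest difference between the groups, that of Tap1, which faces Psmb9, and that of Tapbp, which was higher in AG-haESC than in E14. They are read 5′ to 3′ along the gene. Capitals mark matches, on either strand, to a CCAAT box (CCAAT, or ATTGG on the other strand) or to an interferon-stimulated response element (GAAA, any 2 bases, GAAA).
B2m, chr2:122147437-122147736, plus strand: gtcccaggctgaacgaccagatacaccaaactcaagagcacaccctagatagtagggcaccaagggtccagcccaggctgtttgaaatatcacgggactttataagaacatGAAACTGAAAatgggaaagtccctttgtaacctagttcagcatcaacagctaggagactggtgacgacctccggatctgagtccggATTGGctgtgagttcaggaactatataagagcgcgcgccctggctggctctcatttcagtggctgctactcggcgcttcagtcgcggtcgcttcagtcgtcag
Tap1, chr17:34187306-34187605, plus strand: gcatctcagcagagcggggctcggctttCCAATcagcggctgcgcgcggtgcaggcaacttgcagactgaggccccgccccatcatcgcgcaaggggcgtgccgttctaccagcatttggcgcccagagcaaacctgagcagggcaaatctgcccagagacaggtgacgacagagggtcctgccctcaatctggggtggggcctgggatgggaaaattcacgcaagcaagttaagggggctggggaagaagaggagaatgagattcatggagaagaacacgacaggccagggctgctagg
Tapbp, chr17:33919228-33919527, plus strand: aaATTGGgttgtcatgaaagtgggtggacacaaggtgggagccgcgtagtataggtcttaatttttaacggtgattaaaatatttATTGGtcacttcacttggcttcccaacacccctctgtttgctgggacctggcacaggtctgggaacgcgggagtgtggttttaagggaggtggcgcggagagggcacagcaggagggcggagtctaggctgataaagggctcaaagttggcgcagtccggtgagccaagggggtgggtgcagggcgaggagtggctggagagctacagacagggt
In the B2m window the interferon-stimulated response element begins at position -139 from the start of the gene and the CCAAT box at -53. That element was found in no other of the 6 promoters, and 3.44% of the 32851 promoters in the table hold it. A CCAAT box stands in the windows of B2m, Tap1, Psmb9 and, at 2 places, Tapbp, against 37.4% of all promoters. Neither was matched in Psmb8 or Psmb10. Tap1 and Psmb9 start 226 bases apart on opposite strands, so that 275 of the 300 bases of their windows are the same DNA. The CCAAT match in both windows is therefore the same site, at -222 from Tap1 and -8 from Psmb9. A GC box (GGGCGG, both strands) was matched in Tap1, Tapbp and Psmb9 and a TATA box (TATAAA, both strands) in B2m and Psmb8, against 35.7% and 13.6% of all promoters, and these are not in capitals. The motifs are matches of letters and no measure of binding.

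The deposited signals were taken to log2, and 13251 genes were tested, each on its brightest kept probe set. A call needs an adjusted p under 0.05 together with a change of 2-fold or more. An array's own median signal, on the log2 scale between 5.81 and 6.09, served as the mark below which background weighs heavily. Within E14, the arrays of replicates 1 and 2 correlated across genes at Pearson's r = 0.968, and E14 replicate 3 with them at 0.924 and 0.922, so results that rest on it are given with and without it. All 10 pluripotency markers lay above the array median in every AG-haESC and E14 array, and 2 of 10 in each MEF array. Of 17 tested fibroblast markers, all lay above it in both MEF arrays, 15 to 17 in AG-haESC and 10 to 12 in E14. The MEF arrays also carried macrophage markers, with 13 of 13 tested above the array median in both, against 4 to 5 in AG-haESC and 3 in E14. Of these 13, 9 passed the filter through the MEF arrays alone.

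B2m stood 8.49-fold lower in AG-haESC and 13.53-fold lower in E14 than in MEF, the largest differences of any member. The AG-haESC arrays read 10.40, 11.53, 11.26, 10.16 and 11.11 on the log2 scale, the E14 arrays 10.28, 10.51 and 9.86, and the MEF arrays 13.96 and 13.997. The MEF arrays were nearly equal and lay above all 8 stem cell arrays. The log2 difference, negative where the first group is lower, was -3.08 ± 0.33 (SE) for AG-haESC against MEF and -3.76 ± 0.36 for E14 against MEF (n = 5, 3 and 2, adjusted p = 1.02e-05 and 5.39e-06). The second B2m probe set, 1452428_a_at, read -2.93 ± 0.25 and -3.55 ± 0.27 in the fit over probe sets and was called lower in both, where 20% and 19.1% of 27505 probe sets were called lower and 19.2% and 19.8% higher. Between the stem cell groups the arrays overlapped, and B2m differed by 0.67 ± 0.29 (adjusted p = 0.137). Among the AG-haESC lines, replicates 1 and 4 lay within the range of E14 and replicates 2, 3 and 5 above it. Most macrophage markers moved with B2m, and with Tap2 and Psmb8, in being higher in MEF. Of 13 tested, 10 were lower in AG-haESC and 9 in E14 than in MEF, against 22.5% and 21.3% of all genes. As 9 of the 13 passed the filter through the MEF arrays alone, these counts cannot be read as an excess over those shares. Where probe sets had to lie above the median in 5 arrays, 4 markers were tested and 1 was lower in each stem cell group. The marker Laptm5 went the other way, higher in AG-haESC than in MEF by 1.94. The summed signal of the markers was 7016 to 7446 in MEF, 1103 to 2619 in AG-haESC and 1139 to 1488 in E14 on the linear scale. Laptm5, at 9.07 to 10.98 on the log2 scale in AG-haESC, is part of these sums. Lyz2, C1qa and Ptprc lay below the array median in all stem cell arrays and above it in both MEF arrays. They passed the filter through the MEF arrays alone, so this pattern was set by the filter. The part of the macrophage markers in these signals of MEF was not tested. In bulk RNA, fewer cells of a type and less RNA per cell cannot be told apart.

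**Figure D1:**
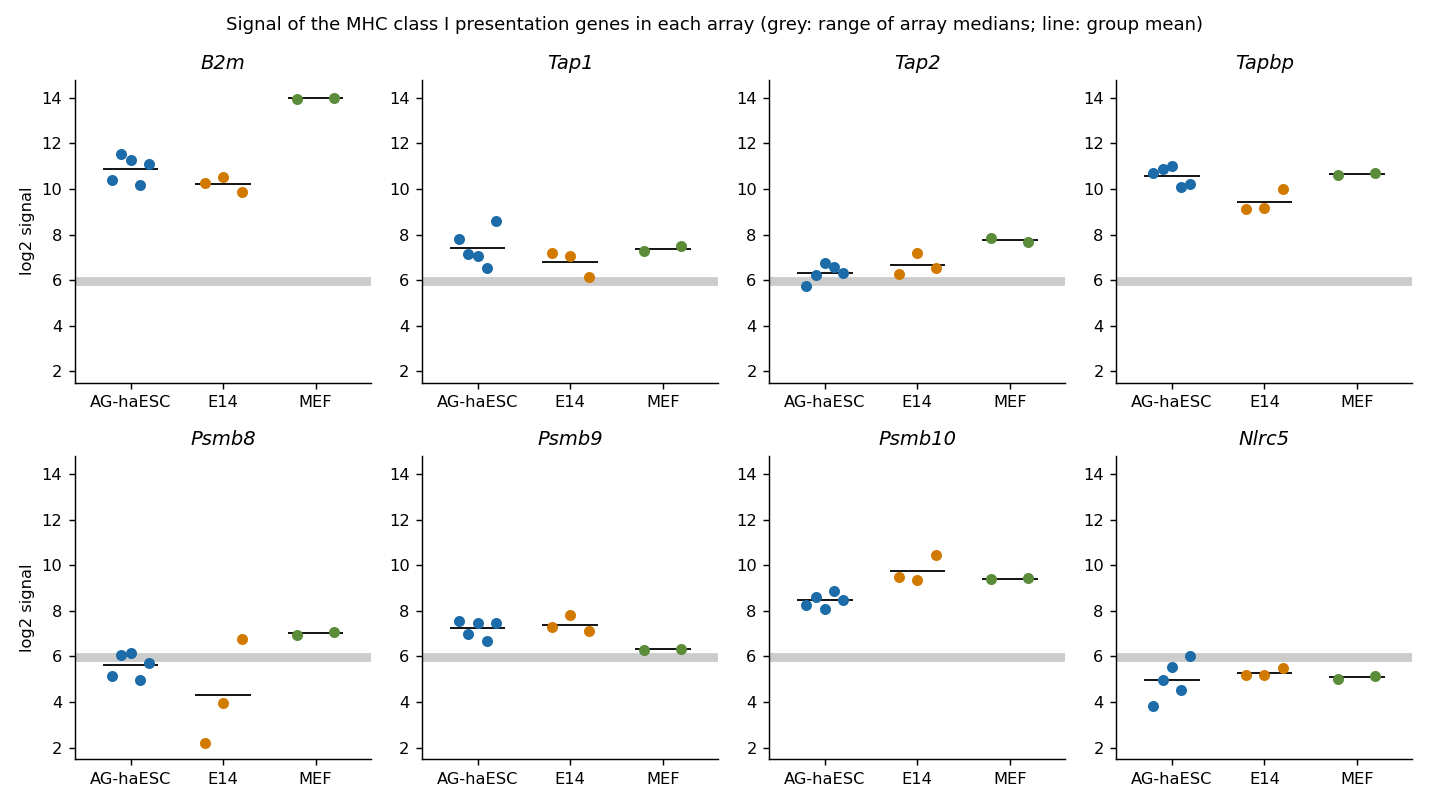
Log2 signal of the 8 members (main probe set, and the sole probe set of Nlrc5) in each of the 5 AG-haESC, 3 E14 and 2 MEF arrays. Points are arrays, lines group means and the grey band the range of the 10 array medians. B2m of both MEF arrays, at 13.96 and 13.997, lies above all stem cell arrays, and all points of Nlrc5 lie in or under the band.

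Of the transporter subunits, Tap2 was lower in both stem cell groups than in MEF, and Tap1 passed no test. Tap1 read 7.78, 7.15, 7.06, 6.53 and 8.60 in AG-haESC, 7.17, 7.07 and 6.15 in E14 and 7.26 and 7.48 in MEF. AG-haESC, from replicate 4 at the bottom to replicate 5 at the top, spanned both MEF arrays and E14 replicates 1 and 2, and E14 replicate 3 lay below all other arrays. The difference in Tap1 was 0.63 ± 0.43 for AG-haESC against E14, 0.052 ± 0.49 for AG-haESC against MEF and -0.57 ± 0.53 for E14 against MEF (adjusted p = 0.353, 0.936 and 0.375). Without E14 replicate 3 it was 0.30 for AG-haESC against E14 and -0.25 for E14 against MEF. The sign of the AG-haESC against MEF value turned without AG-haESC replicate 1 or 5, at -0.038 and -0.24, and without MEF replicate 1, at -0.061. The other 3 probe sets of Tap1 lay below the array median in all 10 arrays and were not tested. Tap2 read 5.75, 6.24, 6.76, 6.58 and 6.31 in AG-haESC, 6.25, 7.17 and 6.53 in E14 and 7.87 and 7.66 in MEF. Both MEF arrays lay above all others, and AG-haESC replicate 1 lay below its array median. Tap2 was lower than in MEF, at -1.43 ± 0.35 in AG-haESC and -1.11 ± 0.38 in E14 (adjusted p = 0.00415 and 0.0268), or 2.70-fold and 2.16-fold. The E14 call was lost without E14 replicate 1, MEF replicate 1 or MEF replicate 2 (adjusted p = 0.0836, 0.133 and 0.0776). AG-haESC and E14 overlapped in Tap2 and differed by -0.32 ± 0.31 (adjusted p = 0.523).

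Tapbp, the peptide editor of the loading complex, was called higher in AG-haESC than in E14. It read 10.72, 10.87, 11.01, 10.09 and 10.22 in AG-haESC, 9.14, 9.15 and 9.98 in E14 and 10.62 and 10.71 in MEF. Every AG-haESC array lay above every E14 array, although AG-haESC replicate 4 and E14 replicate 3 lay close together. The difference was 1.16 ± 0.25, or 2.23-fold (adjusted p = 0.0107), and 1.43 ± 0.23 without E14 replicate 3. The call was lost without E14 replicate 1 or 2 (adjusted p = 0.0524 and 0.0519). E14 also lay below MEF in all arrays, at -1.24 ± 0.32 (adjusted p = 0.00559), while AG-haESC spanned the MEF values with a difference of -0.088 ± 0.29 (adjusted p = 0.811). The second Tapbp probe set, 1450378_at, was dimmer, between 6.08 and 7.39, and differed by 0.42 ± 0.28 between AG-haESC and E14 and by -0.72 ± 0.35 between E14 and MEF, neither called (adjusted p = 0.370 and 0.106). Of all probe sets, 4.37% were called higher and 2.89% lower in AG-haESC than in E14. With the mean of both probe sets the E14 differences were 0.79 and -0.98, below 2-fold. Fibroblast markers moved in the same direction as Tapbp between the stem cell groups. Of 17 tested, 8 were higher in AG-haESC and none lower, against 4.58% and 3.74% of all genes. Without E14 replicate 1 the number higher was 5, and without E14 replicate 3 the number lower was 1. Their summed linear signal was 19627 to 27853 in AG-haESC, 11390 to 11942 in E14 and 215874 to 252114 in MEF. Interferon-stimulated genes were higher in AG-haESC too, as given with their list. The part of either list in the Tapbp difference was not tested.

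Of the 3 immunoproteasome subunits, E14 was lower than MEF in Psmb8 and higher in Psmb9, and AG-haESC was lower than E14 in Psmb10. Psmb8, the inducible form of Psmb5, was dim in the stem cells. It read 5.16, 6.05, 6.16, 4.95 and 5.73 in AG-haESC, of which replicates 2 and 3 lay above the array median, 2.19, 3.97 and 6.78 in E14 and 6.93 and 7.09 in MEF. The E14 arrays did not agree, with replicate 3 near MEF and replicates 1 and 2 below every AG-haESC array. E14 was lower than MEF, at -2.70 ± 1.01 (adjusted p = 0.0380), a call lost without AG-haESC replicate 5, E14 replicate 1, E14 replicate 2 or either MEF array (adjusted p between 0.0512 and 0.138). Without E14 replicate 3 the difference was -3.93 ± 0.68 (adjusted p = 0.000475), and with signals below the array median set to it -0.74 ± 0.22. AG-haESC differed from MEF by -1.40 ± 0.92 (adjusted p = 0.211), with all AG-haESC arrays below both MEF arrays. It was called lower without E14 replicate 3 (adjusted p = 0.0488), and also when only these groups were fitted. The main fit shares 1 spread over all groups, and the SD was 2.31 in E14, 0.54 in AG-haESC and 0.11 in MEF. AG-haESC differed from E14 by 1.30 ± 0.81 (adjusted p = 0.305), and by 2.53 ± 0.57 without E14 replicate 3 (adjusted p = 0.0104), a call that rests on 2 E14 arrays below the array median. The second Psmb8 probe set lay below the array median in all 10 arrays.

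Psmb9, the inducible form of Psmb6, was called higher in E14 than in MEF. It read 7.57, 6.99, 7.46, 6.68 and 7.46 in AG-haESC, 7.28, 7.81 and 7.12 in E14 and 6.30 and 6.34 in MEF. Both MEF arrays lay below all stem cell arrays, though above their own medians. The difference was 1.09 ± 0.34 for E14 (2.12-fold, adjusted p = 0.0180) and 0.92 ± 0.31 for AG-haESC (1.89-fold, adjusted p = 0.0253), which stays under 2-fold. The E14 call was lost without E14 replicate 2, MEF replicate 1 or MEF replicate 2 (adjusted p = 0.0629, 0.0779 and 0.0711), and AG-haESC was called at 1.05 without its replicate 4. AG-haESC and E14 overlapped and differed by -0.17 ± 0.27 (adjusted p = 0.716), a value of 0.034 without E14 replicate 2. Tap1, which faces Psmb9 across the promoter printed with the sequences, differed from MEF by -0.57 in E14, not called, where Psmb9 differed by 1.09. Without E14 replicate 3 the Tap1 value was -0.25. In AG-haESC the differences from MEF were 0.052 for Tap1 and 0.92 for Psmb9, neither called.

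Psmb10, the inducible form of Psmb7, was lower in AG-haESC than in E14. It read 8.26, 8.61, 8.09, 8.87 and 8.49 in AG-haESC, 9.50, 9.36 and 10.46 in E14 and 9.39 and 9.43 in MEF. No AG-haESC array reached any E14 or MEF array, and E14 replicate 3 was the brightest of all. The difference from E14 was -1.31 ± 0.26, or 2.48-fold (adjusted p = 0.00631). Without E14 replicate 3 it was -0.97 ± 0.21 (adjusted p = 0.00842), just under 2-fold, so the call ended there. Against MEF it was -0.95 ± 0.30 (adjusted p = 0.0160), also under 2-fold, and -1.05 and called without AG-haESC replicate 4. E14 and MEF overlapped, with a difference of 0.36 ± 0.32 (adjusted p = 0.359). The constitutive counterparts were measured in the same arrays. Psmb5, Psmb6 and Psmb7 differed between AG-haESC and E14 by -0.12 ± 0.099, -0.069 ± 0.10 and 0.24 ± 0.20, none called (adjusted p = 0.447, 0.693 and 0.453). Against MEF, Psmb6 was higher by 1.34 ± 0.12 in AG-haESC and by 1.41 ± 0.13 in E14 (adjusted p = 2.26e-06 and 3.69e-06), the same sign as Psmb9. Psmb5 read 0.38 and 0.50 above MEF and Psmb7 0.85 and 0.61, all under 2-fold.

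**Figure D2:**
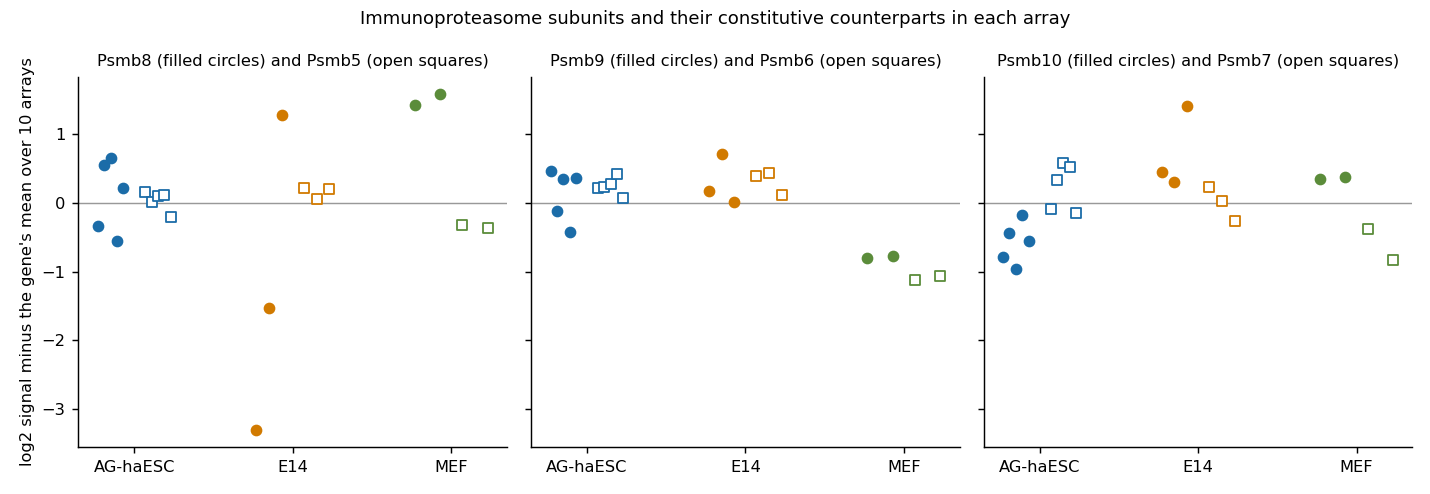
Log2 signal of each immunoproteasome subunit (filled circles) and its constitutive counterpart (open squares) in each array, minus that gene's mean over the 10 arrays, for AG-haESC (n = 5), E14 (n = 3) and MEF (n = 2). Psmb9 and Psmb6 are both lowest in MEF, Psmb10 is lowest in AG-haESC, and Psmb8 spreads from 2.19 to 6.78 log2 signal among the E14 arrays.

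Nlrc5, the transactivator of class I genes, read 3.81, 4.95, 5.56, 4.52 and 6.04 in AG-haESC, 5.20, 5.18 and 5.48 in E14 and 4.999 and 5.16 in MEF. All 10 arrays lay below their own median, so its order between the groups cannot be read. With no filter it differed by -0.31, -0.11 and 0.20 for AG-haESC against E14, AG-haESC against MEF and E14 against MEF, none called (adjusted p = 0.771, 0.911 and 0.840).

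Over the tested members, AG-haESC against E14 gave 1 of 7 called higher (Tapbp) and 1 lower (Psmb10), where 4.58% and 3.74% of all 13251 genes were called, 8.32% in either direction. The median difference was 0.63 for the members and -0.082 for all genes. The arrays of the groups did not overlap for the same 2 members, against 9.87% of all genes with AG-haESC higher and 12.8% with AG-haESC lower. AG-haESC against MEF gave none higher and 2 lower (B2m and Tap2), with 19.7% and 22.5% of all genes called, 42.2% in either direction. Its median difference was -0.95 against 0.0045 for all genes. Arrays did not overlap for 1 member with AG-haESC higher and 4 with AG-haESC lower, against 34.6% and 35.7% of all genes. E14 against MEF gave 1 higher (Psmb9) and 4 lower (B2m, Tap2, Tapbp and Psmb8), with 20.9% and 21.3% of all genes called (42.1% in either direction) and a median of -1.11 against 0.080. Arrays did not overlap for 1 and 5 members, against 38.2% and 35.7% of all genes. Any 2 of the 3 comparisons share the arrays of a group. With 7 genes these counts describe the members and carry no test.

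**Figure D3:**
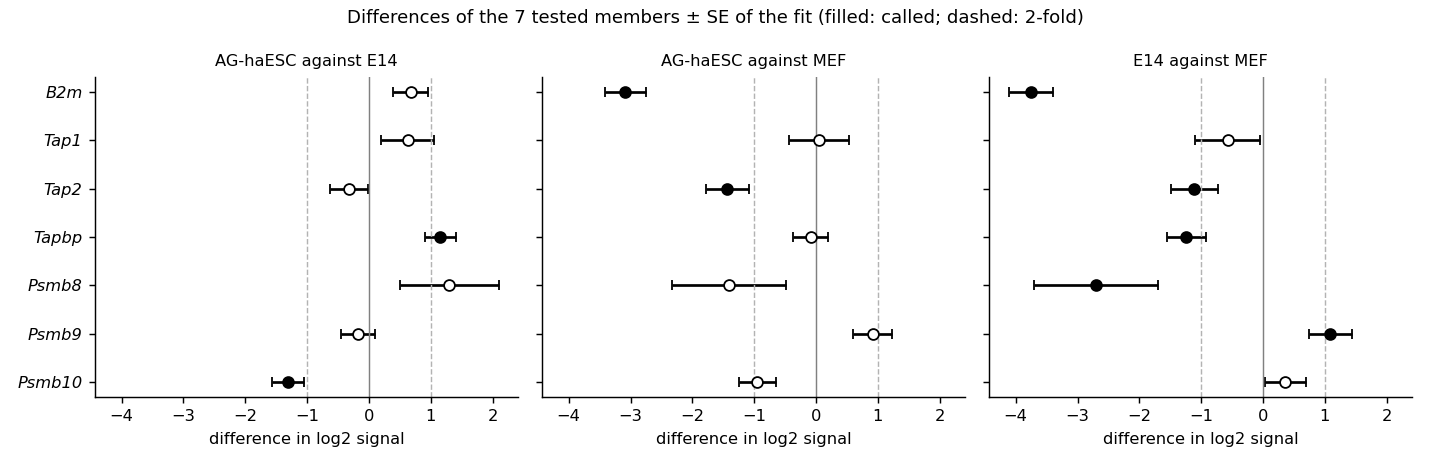
Difference in log2 signal of the 7 tested members for the 3 comparisons, with the SE of the fit as error bars. Filled points are called, and dashed lines mark 2-fold. B2m stands at -3.08 and -3.76 against MEF, Tapbp and Psmb10 are called in opposite directions between AG-haESC and E14, and Psmb8 has the widest error bars.

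The members were also compared by their pattern over the arrays. Each gene's log2 signals were centred on its mean over the 10 arrays, and genes were set against the mean of the 7 tested members by the mean absolute difference over arrays, so that a small value is close. The nearest genes were Ccdc32 (0.130), Pmm2 (0.132), Opa3 (0.133), Cbfb (0.136) and Fmnl2 (0.138). Of the members, Tap2 lay at 0.39, Tapbp at 0.45, Tap1 at 0.58, Psmb9 at 0.65, Psmb10 at 0.72 and B2m and Psmb8 at 0.80 each, while the median of all genes was 0.61. Of the 7 members, 4 lay farther from their own mean than the median gene, near the share of all genes that lies beyond a median. The measure also grows with the size of a gene's own differences, as in B2m, whose centred signals ran from -1.45 to 2.69.

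The light chain B2m pairs with class I heavy chains, and 9 of 24 listed heavy chain and class I-like genes were tested. Against MEF, 5 were lower and 2 higher in AG-haESC, and 4 lower and 2 higher in E14 (list medians -1.61 and -0.94). Of all genes, 22.5% were lower and 19.7% higher in AG-haESC, and 21.3% lower and 20.9% higher in E14. These shares also stand beside the counts against MEF in the lists that follow. H2-M3, a nonclassical heavy chain, was lower than in MEF, at -1.61 ± 0.29 and -1.93 ± 0.31. Fcgrt, the neonatal Fc receptor that also pairs with B2m, was lower, at -1.80 ± 0.21 and -3.25 ± 0.23, and Mr1, which presents vitamin metabolites, was at least 4.37-fold and 4.13-fold lower. Mr1 passed the filter through the MEF arrays alone, so that it had to be lower there, and it counts among the lower genes and in the medians. The 2 higher genes were H2-Q10 and H2-T3, and MEF lay below the array median for both. Both passed the filter through stem cell arrays alone, so the filter favoured this direction. The stem cell arrays lay near their medians, with H2-T3 above it in 2 of 5 AG-haESC and 1 of 3 E14 arrays. The number higher in AG-haESC was 1 without MEF replicate 2, and with signals floored at the array median it was 0 in AG-haESC and 1 in E14. The classical heavy chains H2-K1 and H2-D1 have alleles that differ between mouse strains, and their probe sets disagreed. On its brightest probe set H2-K1 was at 10.14 ± 0.39 in AG-haESC, 10.83 ± 0.90 in E14 and 11.77 ± 0.033 in MEF (mean log2 signal ± SD), lower in AG-haESC than in MEF, at -1.62 ± 0.39 (adjusted p = 0.00346). Of 4 kept H2-K1 probe sets, 2 were called lower in AG-haESC and 1 in E14 against MEF, with log2 differences from -2.73 to -0.100 and from -2.13 to -0.31. The brightest H2-D1 probe set differed by -0.12 ± 0.30 and -0.26 ± 0.33, while 3 of 7 kept were called lower in each stem cell group. Those 3 passed the filter through the MEF arrays alone and lay below the array median in all stem cell arrays, so their size cannot be read and their direction was set by the filter. Between AG-haESC and E14, Fcgrt alone of this list was called, higher in AG-haESC by 1.45 ± 0.18 (adjusted p = 0.000453), and without E14 replicate 3 there were also 2 lower. The part of strain alleles in the probe sets' values was not tested.

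Tapbp and the transporter act with chaperones of the endoplasmic reticulum, and of 9 tested none was called between AG-haESC and E14. Calr, a chaperone of class I heavy chains, differed by 0.0093 ± 0.11 there, and Pdia3, the oxidoreductase bound to tapasin, by 0.38 ± 0.14. Against MEF, 2 were lower in each stem cell group. Erap1, the peptidase that trims peptides to length, was lower, at -1.33 ± 0.35 in AG-haESC and -1.35 ± 0.38 in E14. Tapbpl, a second peptide editor, was at least 2.12-fold lower in AG-haESC and lay below the array median in all stem cell arrays, having passed the filter through MEF alone, and Pdia3 was lower, at -1.05 ± 0.18 in E14. The AG-haESC count was 0 without MEF replicate 1, and the E14 count was 1 without MEF replicate 1 or E14 replicate 3. Of 5 cytosolic peptidases none was called between the stem cell groups. Against MEF, Lap3 was higher in AG-haESC by 1.30 ± 0.15, and Lap3 and Thop1 were higher in E14 by 1.13 ± 0.17 and 1.499 ± 0.21. Without AG-haESC replicate 5 or MEF replicate 2, 2 peptidases were higher in AG-haESC.

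Psmb8, Psmb9 and Psmb10 take the place of Psmb5, Psmb6 and Psmb7 in the 20S core. The list of constitutive subunits holds 14, and all 14 were tested. None was called between AG-haESC and E14 (median 0.18), and all 14 had a positive difference from MEF in both stem cell groups, with medians of 0.72 and 0.55. Of these, 2 were called in AG-haESC (Psmb6 and Psmb3) and 1 in E14 (Psmb6). Psme1, a subunit of the PA28 cap that interferon raises with the immunoproteasome, differed from MEF by -0.60 ± 0.22 in AG-haESC and -0.42 ± 0.24 in E14, neither called. In the list of 8 tested activators and assembly factors, Psme4 and Psmg1 were higher than MEF in AG-haESC by 1.20 ± 0.11 and 1.15 ± 0.12, and Psmg1 and Psmg2 were higher in E14 by 1.17 ± 0.13 and 1.18 ± 0.18.

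Of 11 tested regulators of class I transcription none was called between AG-haESC and E14. Irf1, the factor that binds interferon response elements, differed by 0.047 ± 0.20 there and, in AG-haESC and E14, by 0.12 and 0.071 from MEF. Rfx5, of the complex that recruits Nlrc5, differed by -0.59 ± 0.28, -0.70 ± 0.32 and -0.11 ± 0.35 in the 3 comparisons, none called. Against MEF, Irf2 was at least 3.26-fold lower in AG-haESC and at least 3.08-fold lower in E14, having passed the filter through the MEF arrays alone, Rela of the NF-kB family was lower, at -1.83 ± 0.19 and -1.65 ± 0.21, and Nfyb, which binds the CCAAT box, was higher by 2.02 ± 0.26 and 2.56 ± 0.28. Ciita, the class II counterpart of Nlrc5, did not pass the filter. Of 11 interferon receptor and JAK-STAT genes, 5 were lower than MEF in AG-haESC and 6 in E14, and 1, Socs3, was higher in each. Without E14 replicate 1, 2 were higher in E14. The receptor chain Ifngr2 was lower, at -3.55 ± 0.32 and -3.54 ± 0.35 and Ifnar2 at -1.90 ± 0.27 and -2.02 ± 0.30. None of them was called between AG-haESC and E14, where the list median was 0.054.

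Interferon-stimulated genes were read for the same lines. Of 20 tested, 8 were higher in AG-haESC than in E14 and none lower, against 4.58% and 3.74% of all genes. The list median was 1.58. The count was 3 without AG-haESC replicate 1, 2 without AG-haESC replicate 2 or 3, and 2 without E14 replicate 1 or 2, and with array weights it was 14. Xaf1, which is linked to cell death, was higher by 5.81 ± 0.63, with 1 of 3 E14 arrays above the array median. Usp18, which removes a ubiquitin-like tag from proteins, was at least 6.18-fold higher, with all E14 arrays below the array median. It was no longer called when any 1 of AG-haESC replicates 1 to 3 or of the E14 arrays was left out (adjusted p between 0.0599 and 0.0925). Among the AG-haESC lines Usp18 read 10.07, 10.20, 11.21, 6.46 and 5.39, so that the lines of replicates 4 and 5 lay far below the others. The median of the list's gene-centred log2 signals was 0.87, 1.03, 1.39, -0.52 and -0.77 in AG-haESC replicates 1 to 5, and -1.24, -0.96 and -0.53 in the E14 arrays. On its main probe set, Tapbp was likewise higher in AG-haESC replicates 1, 2 and 3 than in 4 and 5. Its dimmer second probe set did not keep this order. There replicate 4 lay above replicates 1 and 2, and replicate 5 above replicate 1. Among the E14 arrays, replicate 3 was the highest on both Tapbp probe sets. B2m and Tap1 had other orders, with B2m at 11.11 in replicate 5 and 10.40 in replicate 1, and Tap1 highest in replicate 5. The part of these genes' level in the members' values was not tested. For AG-haESC against MEF, 2 of the 20 were higher and 3 lower, and for E14 against MEF 9 were lower, or 15 with array weights and 16 with the replicate block. The number lower in AG-haESC was 5 without AG-haESC replicate 3.

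In the MHC region itself, the genes beside the members were read too. Of 12 tested neighbours, none was called between AG-haESC and E14, though 1 was lower without E14 replicate 1. AG-haESC against MEF gave 2 higher and 1 lower, and E14 against MEF 3 higher, or 1 without E14 replicate 3. Pfdn6, a chaperone subunit, was higher by 1.40 ± 0.12 and 1.69 ± 0.13, and Daxx by 1.38 ± 0.24 and 1.17 ± 0.26, the E14 call of Daxx being lost without E14 replicate 3. Of 7 tested genes of the class II pathway, which lies in the same region, H2-Eb1 was higher in AG-haESC than in E14 and MEF, where it lay below the array median. It was at least 6.13-fold higher than in E14 and at least 6.36-fold higher than in MEF. H2-Eb1 passed the filter through the AG-haESC arrays alone, so its direction was set by the filter. H2-DMa was lower in AG-haESC than in E14, at -1.35 ± 0.39, and that call ended when AG-haESC replicate 1, 2 or 3, or E14 replicate 1 or 2, was left out. Ctss, a lysosomal protease of macrophages and other presenting cells, was at least 17.1-fold lower in AG-haESC and 16.1-fold lower in E14 than in MEF, beside the macrophage markers given with B2m. It too passed the filter through the MEF arrays alone.

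**Figure D4:**
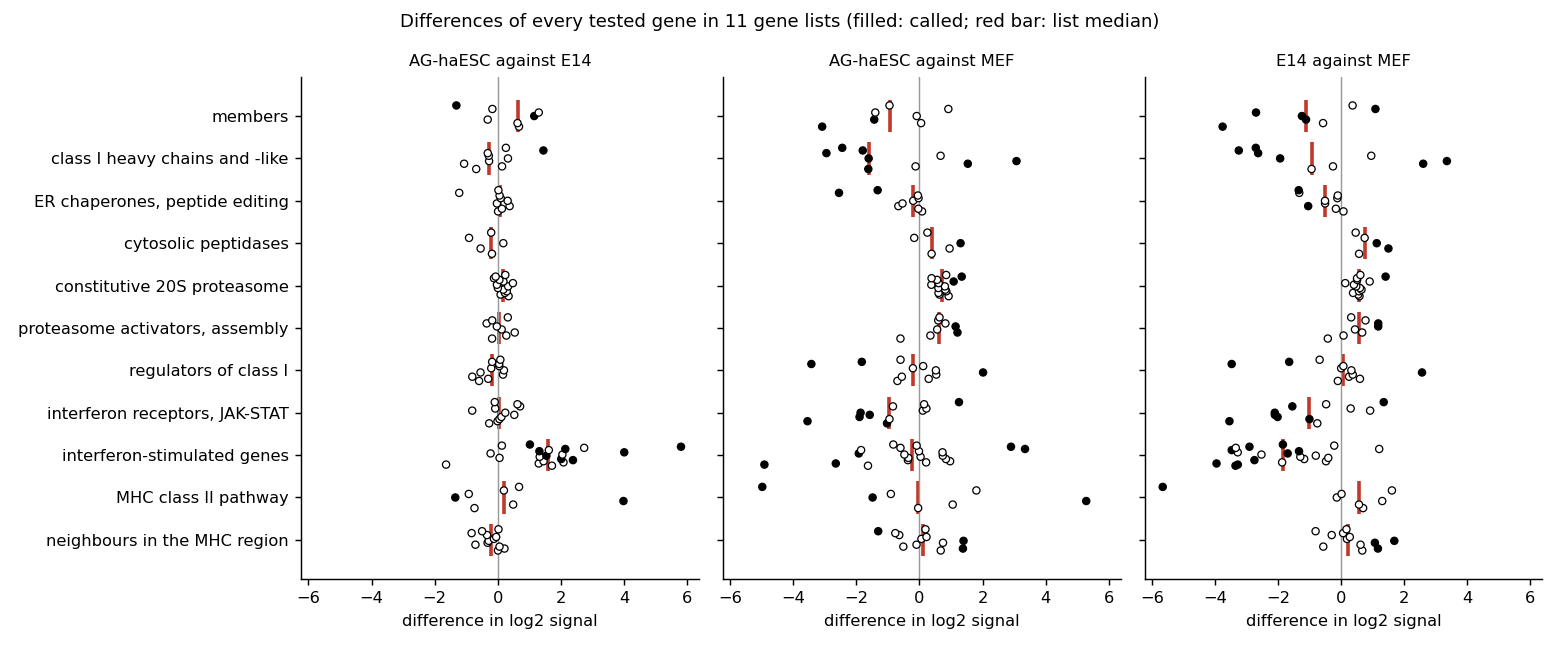
Difference in log2 signal of every tested gene in the members' list and in 10 related gene lists, for the 3 comparisons. Each point is a gene, filled points are called and red bars are list medians. The constitutive 20S subunits lie in a narrow band above 0 against MEF, the interferon-stimulated genes have a median of 1.58 for AG-haESC against E14, and the members spread to both sides in every comparison.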

How the data were processed

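The deposited table holds 1 signal intensity per probe set and array on a linear scale, made by the authors with MAS5 per the submitters' processing notes, whose version the notes do not give. The 2% trimmed mean of every array was 500, so a change in total RNA per cell cannot be seen.

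Of 45101 probe sets, 64 controls were left out. A probe set was kept when its signal lay above the array's median in at least 2 arrays (27505 probe sets). Probe sets were named by the platform annotation, 34945 with 1 symbol, 932 with several and 9160 with none. Each gene was read on its brightest kept probe set, by mean log2. All 10 arrays entered 1 limma 3.58.1 fit (R 4.3.3) of 3 group means with a trended prior and 7 residual degrees of freedom, with two-sided p-values adjusted by Benjamini-Hochberg over 13251 genes. SE values are those of the fit. Every probe set of the members was also fitted among all kept probe sets. "At least" puts a group that lies below its array medians at those medians. With 2 to 5 arrays a group, the number of arrays sets the precision. The labels call the E14 and MEF arrays biological replicates without saying what was separate, so p-values may partly measure technical spread. Members and gene lists were chosen with earlier results of these data known. Named genes are the members, the set of partners given with each list, the 2 largest calls per list and comparison, and the 5 nearest patterns. H2-Q10, Socs3, Rela, Ptprc and Laptm5 were named after their values were seen. Psme2 and H2-T23 have no probe set that pairs with their symbol alone and were not analysed here. Alternatives covered the filter, probe set choice, quantile normalization, a pseudocount of 32, a floor, the prior, the groups fitted, array weights, and each array left out.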

Additional observations from a re-analysis of the deposited data

Results flagged for a closer look

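The gap of the highest or lowest of the 5 AG-haESC arrays to its neighbour, over the group's range, was set against Dixon's critical value of 0.71 for 62 probe sets of the named genes. The gap was larger for 2 of them, and chance alone passes about 1 in 20. No member was among them. Irf2 read 2.20 in AG-haESC replicate 1, the lowest of the group, and all AG-haESC arrays lay below the array median for it. Pou5f1, a core pluripotency factor, read 13.35 in AG-haESC replicate 5, the lowest in a narrow group whose mean was 13.55.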

How the results depend on the processing

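Of 427 recomputed member differences, 391 kept their direction and side of the threshold, 22 lost the call, 6 gained it and 8 changed sign, none of them called. Some alternatives cannot move a difference, as when a MEF array is left out for AG-haESC against E14. The 391 also include differences that were not called in either fit. B2m stayed called against MEF in every alternative, from -3.30 to -2.90 for AG-haESC and from -3.96 to -3.58 for E14. The sign changes were Psmb8 for AG-haESC against E14 at -0.26 with signals floored at the array median, Psmb9 there at 0.034 without E14 replicate 2 (leaving out 1 array gave -0.31 to 0.034), Tapbp for AG-haESC against MEF at 0.0065 with array weights and 0.036 and 0.0025 without AG-haESC replicates 4 and 5 (-0.20 to 0.036), and Tap1 there at -0.038, -0.24 and -0.061 without AG-haESC replicate 1, AG-haESC replicate 5 and MEF replicate 1 (-0.24 to 0.27). For AG-haESC against E14, members called higher were 0 with the mean of probe sets and 2 with array weights, where 1707 genes were called in place of 1102. Leaving out 1 array gave 0 to 2 higher and 0 to 1 lower there, 0 to 1 higher for AG-haESC against MEF, and 0 to 1 higher and 2 to 4 lower for E14 against MEF. With the pseudocount 0 members were higher in E14 against MEF. The cause of these changes was not tested. The replicate block on E14 and MEF replicates 1 and 2 gave 1 member higher and 4 lower, as without it, and 5615 genes called against 5581. Deviations of same-numbered arrays correlated at -0.026 across genes over 2 pairs, so the numbers were not taken to pair the arrays. Quantile normalization moved the median of all genes to 0.086 for AG-haESC against MEF and to 0.13 for E14 against MEF, and member differences there are to be read against it. Without 1 MEF array, the other is assumed to vary like the rest. Macrophage markers called lower than in MEF were 1 when probe sets had to lie above the median in 5 arrays, since that filter removes them. Signals near the array median, as for Psmb8, Tap2 and Nlrc5, limit what can be read.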
